A study of Mus musculus with 6 samples.

Results

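The genes described here form the natriuretic peptide and cGMP axis of bone-derived mesenchymal stem cells (MSCs). They were chosen by symbol as 8 of the 17457 genes in the expression table: the receptors Npr1, Npr2 and Npr3, the receptor ligand Ostn, the cGMP-dependent kinases Prkg1 and Prkg2, the phosphodiesterase Pde5a and the transcription factor gene Nfatc2. RNA was sequenced from 4 libraries of cultured MSCs and 2 libraries of primary MSCs, all from wild-type female C57BL/6J mice aged 10 weeks. For cultured MSCs the mixed cells of collagenase-digested long bones were grown in MesenCult medium for 10 days, a single passage, and only then sorted. Primary MSCs were sorted straight from the same kind of digest. Sorting kept viable cells with Sca-1 and PDGFR-α on their surface and without CD45, Ter119 and CD31. Every library pooled cells from more than 1 mouse. The study asked how far a single passage changes MSCs at the level of transcription. Since sorting came after culture, the groups may hold different cells as well as changed ones.

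Natriuretic peptides are small hormones that act through membrane receptors. Npr1 and Npr2 encode receptors whose inner domain is a guanylyl cyclase, which makes the intracellular messenger cGMP when atrial or B-type peptide (Npr1) or C-type peptide (Npr2) binds. Npr3 encodes a receptor without a cyclase that takes peptides up and clears them, and osteocrin, the product of Ostn, binds to this clearance receptor and so spares the other peptides. cGMP acts through protein kinases, among them those encoded by Prkg1 and Prkg2, and is broken down by phosphodiesterases such as that of Pde5a. In the skeleton the pathway is best known from the growth plate, where C-type peptide, NPR2 and the kinase of Prkg2 promote the lengthening of long bones.

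The levels of the receptor and kinase genes on this axis differed between cultured and primary MSCs. Npr1 and Nfatc2 were close to 0 FPKM in every cultured library and stood at several FPKM in both primary libraries. Npr2 was lower in cultured MSCs but remained the most abundant of the 3 receptors. Npr3, Ostn, Prkg1 and Prkg2 were higher in cultured MSCs, Prkg2 by about 10.3 times on the means. FPKM are fragment numbers scaled to transcript length and library depth, so levels of different genes are compared per length.

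**Figure D1:**
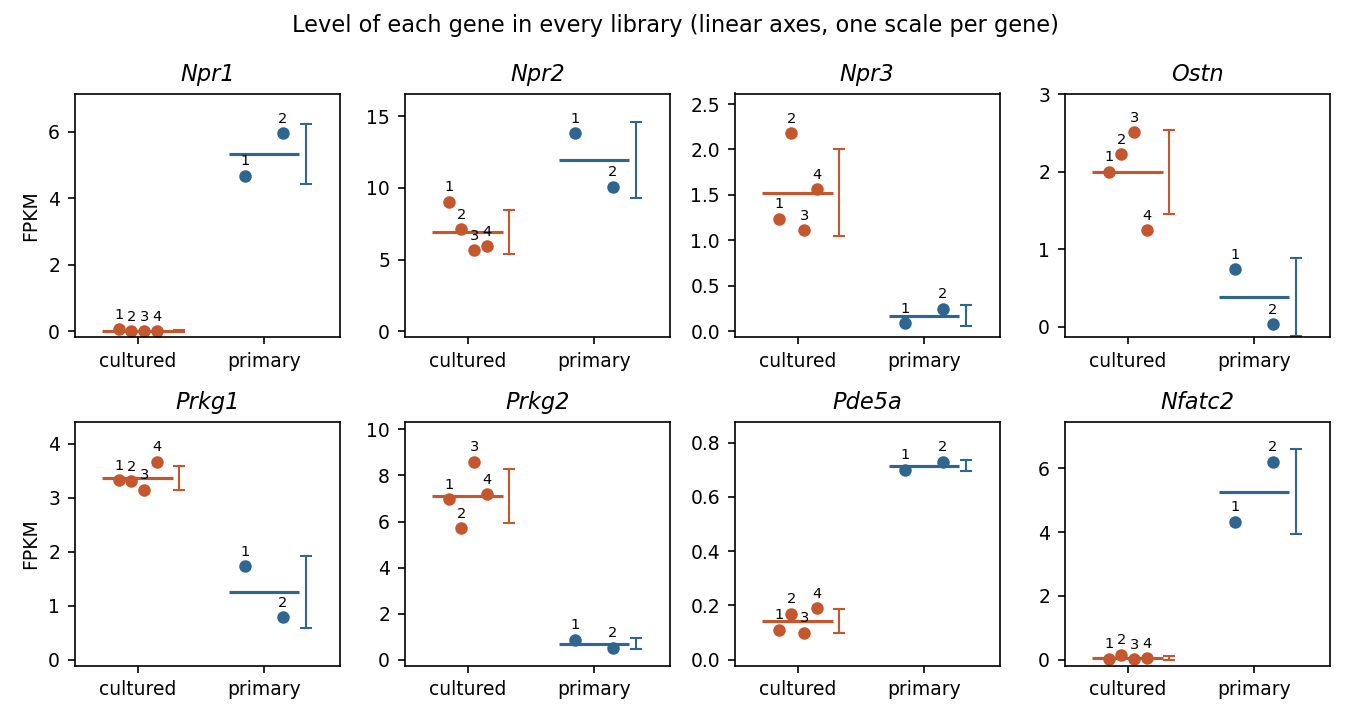
FPKM of the 8 genes in each library, on a linear axis with its own scale for each gene. Points are libraries with their replicate number, horizontal lines are group means and error bars are SD (n = 4 cultured, n = 2 primary). For all 8 genes the 4 cultured values lie on one side of both primary values, with Npr1 at 0 to 0.06 FPKM in cultured MSCs and at 4.68 and 5.96 FPKM in primary MSCs.

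The groups were set against each other with limma on log2(FPKM + 0.1) for the 11405 genes that reached 1 FPKM in 2 or more libraries. Rose and fell describe cultured relative to primary MSCs and are used where p, adjusted over all these genes by Benjamini-Hochberg, was under 0.05. This log scale understates the change of weakly expressed genes. Of the 8 genes 7 passed this filter, and Pde5a did not. Among the 7 genes, 4 rose and 3 fell. For comparison, 48.1% of all genes tested rose and 17.6% fell. The same shares are the background for every count of listed genes or markers given below. The groups did not overlap for any of the 7, against 72.8% of all genes tested. These counts are descriptions only, because 6 of the 7 genes reached the filter in 1 of the groups alone, which favours a difference. The median gene was 0.45 higher in cultured MSCs on the log2 scale, and the changes should be read against that shift.

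The sequences upstream of the transcription start are shown for Npr1 and Nfatc2, the genes that fell most, and for Npr3 and Prkg1, genes that rose. Each is the 250 bases before a transcript start in a RefSeq table on GRCm38.p6, the build of the authors' alignment, read 5′ to 3′ on the gene's own strand. The table has 1 start for Npr1 and Npr3 and 2 for Nfatc2 and Prkg1, of which the outermost is shown. The gene coordinates given below span all RefSeq models of a gene, some of which start further out, so that 250 bases of the Npr3 window, 235 of the Prkg1 window, 62 of the Npr1 window and 0 of the Nfatc2 window lie inside that span. The windows are chr3:90465867-90466116 (minus strand) for Npr1, chr2:168601658-168601907 (minus strand) for Nfatc2, chr15:11907372-11907621 (minus strand) for Npr3 and chr19:31765034-31765283 (minus strand) for Prkg1. Capitals mark matches on either strand to the CREB core TGACG, the NFAT core GGAAA, the Sp1 box GGGCGG, the AP-1 site TGANTCA or the TATA box TATAAA, letters that were chosen after the values were seen.
Npr1: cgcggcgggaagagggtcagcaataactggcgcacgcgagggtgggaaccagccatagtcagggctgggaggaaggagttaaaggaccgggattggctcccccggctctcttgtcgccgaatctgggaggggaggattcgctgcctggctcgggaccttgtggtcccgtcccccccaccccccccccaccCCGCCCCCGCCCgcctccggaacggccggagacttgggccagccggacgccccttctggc
Nfatc2: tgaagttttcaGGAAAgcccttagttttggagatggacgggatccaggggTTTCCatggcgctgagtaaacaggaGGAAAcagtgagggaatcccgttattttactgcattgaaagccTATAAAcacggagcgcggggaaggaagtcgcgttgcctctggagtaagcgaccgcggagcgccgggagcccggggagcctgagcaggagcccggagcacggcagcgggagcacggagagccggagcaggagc
Npr3: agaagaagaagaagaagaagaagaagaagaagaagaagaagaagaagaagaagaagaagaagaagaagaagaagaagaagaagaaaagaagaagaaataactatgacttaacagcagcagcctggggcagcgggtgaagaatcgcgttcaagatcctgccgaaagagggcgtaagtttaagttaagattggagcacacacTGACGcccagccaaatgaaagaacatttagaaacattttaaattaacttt
Prkg1: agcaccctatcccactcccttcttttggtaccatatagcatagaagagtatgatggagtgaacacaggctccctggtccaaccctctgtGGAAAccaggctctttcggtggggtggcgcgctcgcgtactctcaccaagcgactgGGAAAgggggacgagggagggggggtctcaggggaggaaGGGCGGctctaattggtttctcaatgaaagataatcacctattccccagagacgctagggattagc

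Npr1 held 2 adjoining Sp1 boxes and none of the other motifs, and an Sp1 box occurred in 32.7% of 32851 windows of this length over all genes. Nfatc2 held 3 NFAT cores, which 55.6% of all windows have at least once, and 1 TATA box, found in 12.4%. Npr3 held 1 CREB core, found in 17.8% of windows, and a run of GAA repeats, and 93 bases of its window lie in an exon of the antisense gene Gm5144. Prkg1 held 2 NFAT cores and 1 Sp1 box. An AP-1 site occurred in 6.75% of windows and in none of these 4. In the 250 bases there were 21 CpG dinucleotides for Npr1, 19 for Nfatc2, 9 for Prkg1 and 6 for Npr3, where the median window had 6. The table of upstream sequences held 6 of the 8 genes.

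Among the receptors, Npr1 (gene 18160, chromosome 3, 90450591 to 90465928 on GRCm38.p6) was listed at 0.06, 0, 0 and 0 FPKM in cultured replicates 1 to 4, against 4.68 and 5.96 FPKM in primary replicates 1 and 2. The receptor of atrial natriuretic peptide was thus near or at the floor of the table in every cultured library and clearly present in both primary ones. The log2 fold change was -5.58 (standard error 0.36, adjusted p = 7.08e-06 from limma). Only 90 genes had a larger fall among those tested. With values at 0 its size depends on the pseudocount, at -8.35 with 0.01 and -2.63 with 1. Npr1 passed the test with each, but it reached the filter through primary MSCs alone, so this is no independent support. Of 14 genes that every cell uses, such as Actb and Gapdh, none was listed at 0 in any library. Their lowest value was 9.34 FPKM, above every value of Npr1. They thus cannot show how often a gene at the level of Npr1 is listed at 0.

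Npr2 (gene 230103, chromosome 4, 43629015 to 43651437) had 9.03, 7.11, 5.66 and 5.94 FPKM in cultured MSCs, against 13.83 and 10.08 FPKM in primary MSCs. All cultured values lay below both primary values, but the gap between 9.03 and 10.08 FPKM was smaller than the spread within either group. Npr2, the receptor of C-type natriuretic peptide, averaged 6.94 ± 1.53 FPKM in cultured MSCs (SD, n = 4) and 11.96 ± 2.65 FPKM in primary MSCs (SD, n = 2). It fell by 0.78 on the log2 scale (standard error 0.23), with an adjusted p of 0.0156 from limma. Npr2 no longer passed with array weights per group (adjusted p = 0.0884) and with no filter on low values (adjusted p = 0.0501). Its log2 fold change was -0.56 when primary replicate 1 was left out.

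Npr3 (gene 18162, chromosome 15, 11839896 to 11907837) had 1.24, 2.18, 1.11 and 1.56 FPKM in cultured MSCs, against 0.09 and 0.25 FPKM in primary MSCs. The clearance receptor was a weakly expressed gene in both groups, and its lowest cultured value was still above the higher primary one. It rose by 2.61 on the log2 scale (standard error 0.38, adjusted p = 0.000476). The rise was smaller, at 1.09, with a pseudocount of 1.

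The balance of the receptors was compared within each library. Of the summed FPKM of the 3 receptors, Npr3 made up 12.004%, 23.5%, 16.4% and 20.8% in cultured replicates 1 to 4, against 0.484% and 1.53% in primary MSCs. Npr1 made up 0.581%, 0%, 0% and 0% in cultured MSCs, against 25.2% and 36.6% in primary MSCs. Npr2 supplied most receptor transcript in every library, at 76.5% to 87.4% in cultured MSCs and at 74.4% and 61.9% in primary MSCs. The sum itself was 6.77 to 10.33 FPKM in cultured MSCs and 18.6 and 16.29 FPKM in primary MSCs. The Npr3 share differed by 17.2 percentage points and the Npr1 share by -30.7 points, cultured minus primary, each with an exact two-sided permutation p of 0.133, the smallest that 4 libraries against 2 can give in this test (adjusted p = 0.171 over 9 shares). These shares were a later choice, made after the values had been seen.

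**Figure D2:**
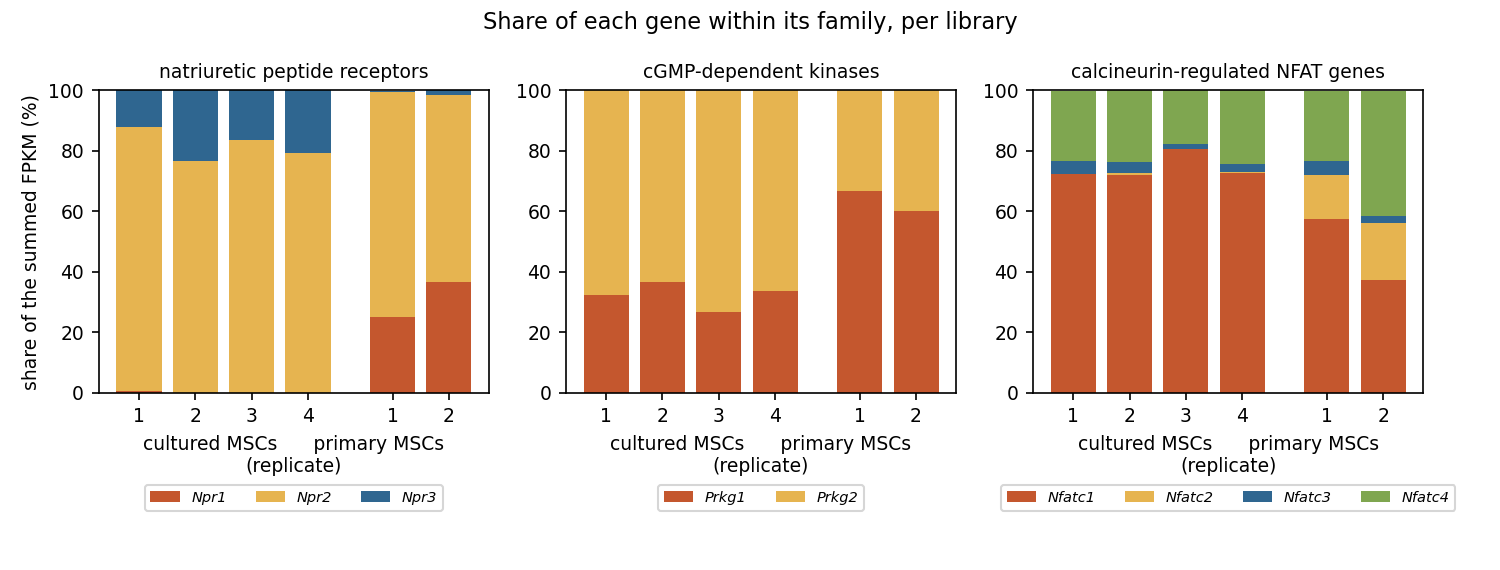
Share in % of each gene in the summed FPKM of its family, one bar per library, with cultured replicates 1 to 4 left of primary replicates 1 and 2. Npr1 holds 25.2% and 36.6% of the receptor sum in primary MSCs and at most 0.581% in cultured MSCs, while Prkg2 holds 63.3% to 73.2% of the kinase sum in cultured MSCs and 33.2% and 39.7% in primary MSCs.

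Among the ligands, Ostn (gene 239790, chromosome 16, 27307641 to 27351209) had 2.00, 2.23, 2.51 and 1.25 FPKM in cultured MSCs, against 0.74 and 0.03 FPKM in primary MSCs. Osteocrin is made by osteoblasts and by muscle, and here its transcript was higher in every cultured library while the primary libraries differed widely. It rose by 2.62 on the log2 scale (standard error 0.67, adjusted p = 0.00869 from limma). The size rested on the primary libraries, at 3.97 without primary replicate 1 and 1.28 without primary replicate 2. Each of these fits keeps 1 primary library and cannot measure the spread between primary libraries, so no call is read from it.

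Osteocrin comes from bone-forming and muscle cells, whose markers were summed. The summed FPKM of the 7 osteoblast and osteocyte markers in the table was 33.7 to 42.3 in cultured MSCs and 1410 and 642 in primary MSCs, and all 5 that were tested fell. That of 6 skeletal muscle markers in the table was 3.66 to 6.98 FPKM in cultured MSCs and 10.5 and 4.07 FPKM in primary MSCs. Of its 2 tested members 1 rose, Acta1, with 2.12 to 5.46 FPKM in cultured MSCs and 0.03 and 0.10 FPKM in primary MSCs (log2 fold change 4.53, adjusted p = 3.05e-05), and 1 fell, Tnnt3 (log2 fold change -1.07, adjusted p = 0.0198). Myl1 supplied 6.90 FPKM of the sum in primary replicate 1. Mb, Myh1 and Myog were each at 0 in at least 1 library of both groups. The part of these cells in the Ostn values was not tested. In bulk libraries fewer cells of a type and less RNA per cell cannot be told apart.

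The natriuretic peptides themselves were scarce. Nppc, which encodes C-type peptide, was listed at 0, 0, 0.04 and 0.04 FPKM in cultured MSCs, against 1.46 and 0.99 FPKM in primary MSCs. It was below the filter, and with no filter its log2 fold change was -3.46 (standard error 0.24, adjusted p = 0.000455 from limma). It was singled out after its values were seen. Nppa and Nppb, which encode the atrial and B-type peptides, were at most 0.39 and 0.37 FPKM in any library.

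Of 7 genes listed for ligands and peptide processing, 3 were tested, of which 2 rose and 1 fell. Mme encodes neprilysin, which degrades natriuretic peptides, and had 29.3 to 36.4 FPKM in cultured MSCs, against 4.60 and 5.12 FPKM in primary MSCs. It rose by 2.72 on the log2 scale (standard error 0.13, adjusted p = 2.11e-06). Ide, another peptidase, rose by 0.76. Furin, a convertase that matures propeptides, fell, with a log2 fold change of -0.88.

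Among the kinases, Prkg2 (gene 19092, chromosome 5, 98929773 to 99037375) had 6.97, 5.70, 8.60 and 7.18 FPKM in cultured MSCs, against 0.86 and 0.52 FPKM in primary MSCs. It encodes the membrane-anchored cGMP-dependent kinase of growth plate and gut, and every cultured library was well above both primary libraries. The log2 fold change was 3.21 (standard error 0.25, adjusted p = 1.77e-05 from limma), and 400 genes had a larger rise. Of 8 chondrocyte markers 7 were tested, of which 2 rose and 3 fell. Their sum was 355 to 756 FPKM in cultured MSCs and 237 and 75.7 FPKM in primary MSCs. Col2a1, the collagen of cartilage, had 331 to 723 FPKM in cultured MSCs and 171 and 38.0 FPKM in primary MSCs and rose by 2.62 (adjusted p = 0.00322), and Hapln1 rose by 1.04, while Acan (-1.74), Col9a1 (-2.55) and Ucma (-1.61) fell. The part of chondrocytes in the Prkg2 values was not tested.

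Prkg1 (gene 19091, chromosome 19, 30564487 to 31765268) encodes the kinase through which cGMP relaxes smooth muscle. It had 3.33, 3.31, 3.15 and 3.67 FPKM in cultured MSCs, against 1.73 and 0.79 FPKM in primary MSCs. The cultured libraries were nearly level and the primary libraries were apart from each other. It rose by 1.44 (standard error 0.29, adjusted p = 0.00287), by 0.92 without primary replicate 2 and by 1.03 with median ratio scaling.

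Prkg2 was the more abundant kinase gene in each cultured library and Prkg1 in each primary library. Prkg2 made up 67.7%, 63.3%, 73.2% and 66.2% of their summed FPKM in cultured MSCs, against 33.2% and 39.7% in primary MSCs. The share differed by 31.1 percentage points, cultured minus primary (exact two-sided permutation p = 0.133, adjusted p = 0.171 over 9 shares). The summed level was 9.01 to 11.75 FPKM in cultured MSCs and 2.59 and 1.31 FPKM in primary MSCs.

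Prkg1 and Pde5a are known from smooth muscle and pericytes, whose markers went both ways. Of 10 markers 4 were tested, of which 2 rose and 1 fell. Acta2 had 281 to 316 FPKM in cultured MSCs, against 27.3 and 13.1 FPKM in primary MSCs, and Rgs5, a pericyte gene, had 0.13 to 0.58 FPKM in cultured MSCs, against 21.4 and 10.1 FPKM in primary MSCs. Myh11, the myosin of mature smooth muscle, was at most 0.09 FPKM in cultured MSCs and 0.46 and 0.43 FPKM in primary MSCs. The summed level of the list was 323 to 355 FPKM in cultured MSCs and 79.8 and 74.1 FPKM in primary MSCs. Acta2 supplied most of the cultured sums. Cnn1 was the other marker that rose (log2 fold change 4.09), and Cspg4 did not pass the test. Below the filter, Des, Notch3 and Kcnj8 were lower in every cultured library, and Mcam and Abcc9 overlapped between the groups. The part of such cells in the values of these genes was not tested.

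Pde5a (gene 242202, chromosome 3, 122729158 to 122859374), which encodes a cGMP-specific phosphodiesterase, had 0.11, 0.17, 0.10 and 0.19 FPKM in cultured MSCs, against 0.70 and 0.73 FPKM in primary MSCs. It was below 1 FPKM in every library and was not among the genes tested. With no filter its log2 fold change was -1.77 (standard error 0.20, adjusted p = 0.0019 from limma over 17457 genes).

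Of 17 genes listed for other cGMP phosphodiesterases and cGMP export, 7 were tested, of which 1 rose and 3 fell. Pde9a, a phosphodiesterase with high affinity for cGMP, had 0.08, 0, 0.11 and 0.07 FPKM in cultured MSCs, against 5.22 and 5.57 FPKM in primary MSCs. Its log2 fold change was -5.11, with a standard error of 0.37 and an adjusted p of 1.35e-05. Pde1a, a calcium- and calmodulin-dependent enzyme, fell with -1.40, and Pde1b of the same family with -1.28. Abcc4, an exporter of cyclic nucleotides, rose by 0.62, while Abcc5, another exporter, stood at 12.02 to 15.24 FPKM in cultured MSCs and 12.4 and 11.5 FPKM in primary MSCs (adjusted p = 0.192). Pde6d, a carrier of prenylated proteins in most tissues, was the most abundant gene of the list and did not pass the test (log2 fold change -0.03).

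Of 22 genes listed as substrates and partners of cGMP-dependent kinases, 17 were tested, of which 8 rose and 4 fell. Over all genes tested 48.1% rose and 17.6% fell, so the count that rose is near the background. Hspb6, a small heat shock protein phosphorylated by cyclic nucleotide-dependent kinases, had 118 to 133 FPKM in cultured MSCs, against 12.9 and 13.9 FPKM in primary MSCs, and rose by 3.19 (standard error 0.10, adjusted p = 2.5e-07). Kcnma1, a calcium-activated potassium channel that cGMP signalling opens, had 0.15 to 0.35 FPKM in cultured MSCs, against 3.72 and 4.77 FPKM in primary MSCs. Its log2 fold change was -3.65, with a standard error of 0.32 and an adjusted p of 3.21e-05. Rhoa, the small GTPase, was the most abundant of the list and rose by 0.35, less than the median gene.

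Nfatc2 (gene 18019, chromosome 2, 168476410 to 168601657) encodes a transcription factor that calcineurin, a calcium-dependent phosphatase, moves into the nucleus. It had 0.03, 0.16, 0.01 and 0.04 FPKM in cultured MSCs, against 4.33 and 6.21 FPKM in primary MSCs. All cultured libraries were near 0 and both primary libraries were well above them. The log2 fold change was -5.13 (standard error 0.42, adjusted p = 2.35e-05 from limma), -6.67 with a pseudocount of 0.01 and -2.55 with 1. Nfatc2 is also active in lymphocytes. Among their markers, Cd79a was at 0 to 0.04 FPKM in cultured MSCs and at 0 and 0.58 FPKM in primary MSCs, Cd79b at 0 to 0.03 FPKM in cultured MSCs and at 0.04 and 0 FPKM in primary MSCs, and Cd3d at 0 to 0.03 FPKM in cultured MSCs and at 0 in both primary libraries. The part of lymphocytes in the Nfatc2 values was not tested.

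Nfatc2 supplied 0.140%, 0.576%, 0.0248% and 0.100% of the summed FPKM of the 4 calcineurin-regulated NFAT genes in cultured MSCs, against 14.7% and 18.9% in primary MSCs. The share differed by -16.6 percentage points, cultured minus primary (exact two-sided permutation p = 0.133, adjusted p = 0.171 over 9 shares). Nfatc1, which directs osteoclast formation in its best-known role, supplied the largest share in every cultured library, at 72.1% to 80.5%, and 57.4% and 37.2% in primary MSCs. Its level was 15.6 to 32.5 FPKM in cultured MSCs and 16.9 and 12.2 FPKM in primary MSCs (log2 fold change 0.69, adjusted p = 0.0694), and Nfatc3 and Nfatc4 did not pass the test either.

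Of 18 genes listed for calcineurin and other NFAT genes, 16 were tested, of which 5 rose and 3 fell. The calcineurin regulators went in opposite directions. Rcan1, an inhibitor of calcineurin that NFAT itself induces, had 14.3 to 32.3 FPKM in cultured MSCs, against 95.7 and 70.2 FPKM in primary MSCs, and fell by 1.87 on the log2 scale (standard error 0.29, adjusted p = 0.000676). Rcan2, its relative, rose by 2.23 (standard error 0.17, adjusted p = 1.72e-05). Ppp3r1, the regulatory subunit of calcineurin, rose by 0.64, and Homer2, a scaffold protein that binds NFAT, fell with -2.83.

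**Figure D3:**
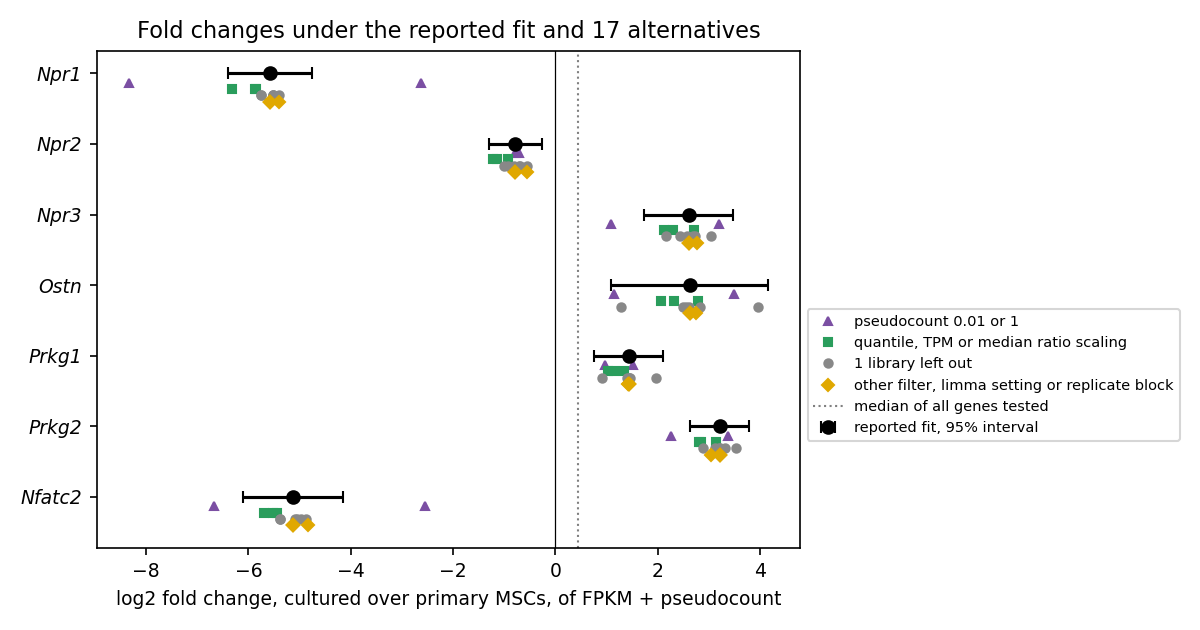
Log2 fold change of cultured over primary MSCs for the 7 genes tested. Black points are the reported fit with its 95% interval, coloured symbols are the 17 alternatives, and the dotted line is the median of all genes tested (0.45). No gene changes direction, and Npr1 ranges from -8.35 to -2.63 with the pseudocount.

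The other listed genes, those of cGMP signalling together with those of calcineurin and NFAT, went in both directions. The calcineurin and NFAT list holds 16 of the tested genes. Of 92 genes in the 7 lists, 84 were in the table and 47 were tested, of which 17 rose (36.2%) and 12 fell (25.5%), beside 48.1% and 17.6% of all genes tested. Their median log2 fold change was 0.22, against 0.45 over all genes tested. The split depended on the scaling, with 8 higher and 15 lower under median ratio scaling and 14 of each under rescaling to TPM. Over all genes tested the split moved as well, from 5485 higher and 2008 lower in the reported fit. It was 3346 and 3267 under median ratio scaling and 4755 and 2332 under rescaling to TPM. Genes of nitric oxide signalling were mostly below the filter, so that of 11 listed only 4 regulators were tested. Of these Ddah1 rose by 1.64 and Ddah2 fell with -3.74, enzymes that each degrade an inhibitor of nitric oxide synthases, while Nosip and Nostrin did not pass the test. None of the 5 other membrane guanylyl cyclases and their ligands, or of the 7 cyclic nucleotide gated channels in the table, reached the filter.

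**Figure D4:**
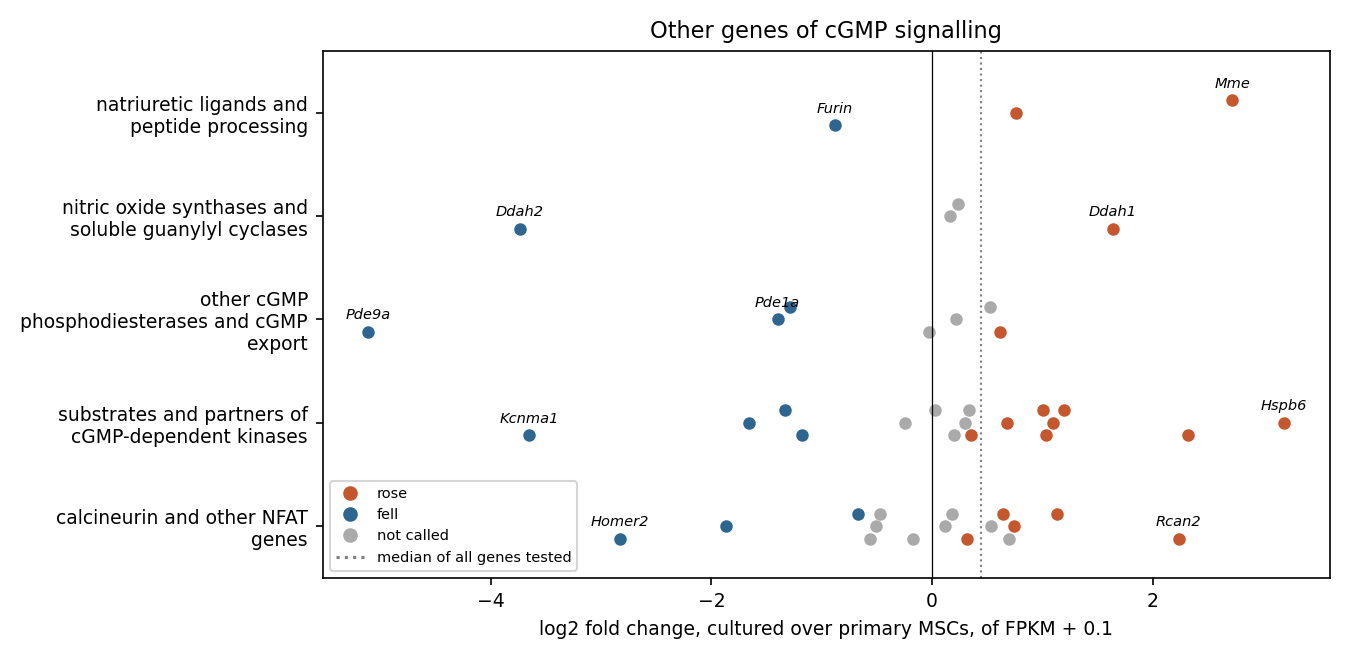
Log2 fold change of cultured over primary MSCs for the 47 tested genes of cGMP signalling and of calcineurin and NFAT other than the 8 described, by list. Colours mark genes that rose, fell or were not called, and names mark the called genes with the largest changes in each list, from Pde9a at -5.11 to Hspb6 at 3.19.

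Ordered by level, the genes changed places between the groups. In cultured MSCs Prkg2 (7.11 FPKM on average) and Npr2 (6.94) came first with overlapping ranges, followed by Prkg1 (3.37), then Ostn (2.00) and Npr3 (1.52), whose ranges overlapped, and Pde5a, Nfatc2 and Npr1 at or below 0.19 FPKM, each overlapping with the next. In primary MSCs Npr2 came first (11.96 FPKM), followed by Npr1 (5.32) and Nfatc2 (5.27), which could not be separated, then Prkg1 (1.26), and Pde5a, Prkg2, Ostn and Npr3 between 0.715 and 0.170 FPKM, each overlapping with the next.

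For each gene tested, the genes most alike in pattern over the 6 libraries were taken as those with the smallest root mean square difference of centred log2 values. Nearest to Npr1 was Dkk2, a secreted modulator of Wnt signalling, with a difference of 0.11 and 0.08 to 0.20 FPKM in cultured MSCs, against 8.45 and 10.87 FPKM in primary MSCs. Nearest to Npr3 was Rspo2, a secreted activator of Wnt signalling, with a difference of 0.12 and 20.5 to 41.2 FPKM in cultured MSCs, against 3.87 and 6.65 FPKM in primary MSCs. Like Npr3 it was highest in cultured replicate 2 and lowest in cultured replicate 3, which the choice by smallest difference favours. Nearest to Nfatc2 was Adam33 (0.17), to Prkg2 Scarb1 (0.15), to Prkg1 Rprd1a (0.03), to Npr2 Cyba (0.08) and to Ostn Rapsn (0.20).

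Several of the genes share exon sequence with an antisense gene, and the library kit does not mark the strand. In GENCODE M21, also on GRCm38, Ostn shares 12.9% of its exon bases with Gm32312, Npr1 11.7% with Gm16048, Npr2 5.70% with Gm12473, Npr3 3.42% with Gm5144 and Pde5a 0.559% with 4930447N08Rik. Reads from the shared parts cannot be assigned to one of the partners.

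The deposited values summed to 612104 to 642497 FPKM in cultured libraries and to 571471 and 559601 in primary libraries. Ly6a (Sca-1) and Pdgfra, the positive sort antigens, were expressed in all 6 libraries. Pdgfra fell (log2 fold change -0.82, adjusted p = 0.000486 from limma) and Ly6a did not pass the test. Ptprc (CD45) and Pecam1 (CD31) were at most 0.62 FPKM and below the filter. Ptprc was at 0.12 to 0.47 FPKM in cultured MSCs and at 0 and 0.02 FPKM in primary MSCs. Pecam1 was at 0.02 to 0.08 FPKM in cultured MSCs and higher in both primary libraries. Erythroid genes, whose cells the sort against Ter119 removes, were higher in primary MSCs, with a sum over 7 genes of 0.20 to 0.61 FPKM in cultured MSCs and of 239 and 150 FPKM in primary MSCs, nearly all from globins, and all 4 that were tested fell. Of 12 markers of macrophages 11 rose and none fell, beside 48.1% and 17.6% of all genes tested. Their summed level was 107 to 342 FPKM in cultured MSCs and 34.4 and 34.3 FPKM in primary MSCs. Within cultured MSCs that sum was lowest in replicate 3, and the 8 genes went both ways there. With 4 libraries a gene is often highest or lowest in a given one. The share of all genes at an extreme in replicate 3 was not counted. Prkg2 (8.60 FPKM) and Ostn (2.51 FPKM) were highest there. Npr2 (5.66 FPKM), Npr3 (1.11 FPKM), Prkg1 (3.15 FPKM), Pde5a (0.10 FPKM) and Nfatc2 (0.01 FPKM) were lowest there, and Npr1 was at 0. Endothelial cells, in which Npr1 is also known, had 8 markers summing to 0.11 to 0.44 FPKM in cultured MSCs and to 3.14 and 4.37 FPKM in primary MSCs. Tek supplied 2.71 and 3.70 FPKM of the primary sums and fell in cultured MSCs, Pecam1 supplied 0.18 and 0.62 FPKM, Kdr 0.25 and 0 FPKM and Cdh5 0 and 0.05 FPKM, and Vwf, Cldn5, Emcn and Tie1 were at 0 in both. The part of these cells in the 8 genes was not tested.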

How the data were processed

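RNA of the sorted MSCs was sequenced after cDNA synthesis with the SMART-Seq v4 kit. According to the submitters' processing notes and the methods, HISAT2 2.0.4 was used by the authors for alignment to GRCm38.p6. They mapped reads to the reference genes with Bowtie2 2.2.5 and estimated expression with RSEM 1.2.8. The values that the authors deposited are FPKM with 2 decimals for each library. A column of log2 fold changes that the authors computed was not used. The table carries no counts, so the reads behind a single value are unknown, and a count test was not run.

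A linear model was fitted with limma 3.58.1 in R 4.3.3 to log2(FPKM + 0.1), with a variance trend, for the 11405 genes reaching 1 FPKM in 2 or more libraries (4 residual degrees of freedom). The methods describe the libraries of a group as biological replicates from pools of mice. Shares within gene families were compared by exact permutation (scipy 1.17.1). Upstream sequences and coordinates came from RefSeq tables on GRCm38.p6, and overlaps from GENCODE M21. Alternatives were other pseudocounts, filters, scalings and limma settings, a block for the replicate number, and fits that each leave 1 library out. Named genes are the 8 chosen, per list the 2 called genes with the largest change and the 2 most abundant, and the nearest patterns, and other genes were named after their values were seen. The genes and lists were chosen with earlier results of these data known. Figures were drawn with matplotlib 3.10.9. Some listed genes are not reported here.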

Additional observations from a re-analysis of the deposited data

Results flagged for a closer look

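Among the cultured libraries, replicate 1 stood apart from the other 3 for 3 of 29 genes examined. Chance meets the rule used in about 5% of groups of continuous values. That rate does not hold for genes with several values at 0, such as Npr1. Gucy2g and Hcn4, at 0 in every cultured library, could not meet the rule. Npr1 was at 0.06 FPKM there and at 0 in the others. Pde1a was lowest there, at 2.77 FPKM, with 4.01 to 4.21 FPKM in the others. Cngb1, a channel subunit, was highest there, at 0.10 FPKM, with 0.01 to 0.02 FPKM in the others. The values of Npr1 and Cngb1 are near the resolution of the table.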

How the results depend on the processing

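Npr1, Npr3, Ostn, Prkg1, Prkg2 and Nfatc2 kept their direction under all 17 alternatives. They kept their call in every fit with both primary libraries, with adjusted p from limma of at most 0.0482 (Ostn with no filter). Each of these genes reached 1 FPKM in 2 or more libraries of 1 group alone, so a kept call is no independent support. Fits without a primary library keep 1 and are read for effect size only. Npr2 kept its direction, between -1.21 and -0.55 on the log2 scale. Its call was lost with array weights per group, with no filter and with the replicate number as a block. With the replicate number as a block, the log2 fold change of Npr2 was -0.55 with an adjusted p of 0.0858 from limma. The block changed no other call of the 7 genes tested. Cultured libraries whose number no primary library shares add nothing to a fold change in this fit. It thus rests on replicates 1 and 2 of each group. Libraries with the same number deviated from their group means with correlations of 0.12 (replicates 1) and 0.05 (replicates 2), and nothing in the labels says that a number marks a shared litter or day. Of the other genes of cGMP signalling and of calcineurin and NFAT, 17 were higher and 12 lower in the reported fit. With median ratio scaling 8 were higher and 15 lower, and with quantile normalization 8 higher and 14 lower. These scalings bring the median gene to 0.02 and 0.09. Over all genes tested, 3346 were higher and 3267 lower with median ratio scaling, and 3656 and 3039 with quantile normalization. The precision is limited by the 2 primary libraries.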

Other observations

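The enzymes that make cGMP in response to nitric oxide were close to 0 FPKM in cultured MSCs and uneven between the primary libraries. Gucy1a1, a subunit of soluble guanylyl cyclase, was at 0 to 0.04 FPKM in cultured MSCs and at 1.34 and 0 FPKM in primary MSCs, and Gucy1b1, its partner subunit, at 0 to 0.02 FPKM in cultured MSCs and at 0.18 and 0.76 FPKM in primary MSCs. The synthases Nos1, Nos2 and Nos3 were at most 0.20 FPKM in any library. None of these genes reached the filter. With no filter Gucy1b1 fell by 2.19 on the log2 scale (standard error 0.45, adjusted p = 0.0140 from limma), while Gucy1a1 (-1.65, adjusted p = 0.274), Nos1, Nos2 and Nos3 did not pass.

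Nppb was listed at 0.11, 0.31, 0.28 and 0.37 FPKM in cultured MSCs and at 0 in both primary libraries, the opposite order to Nppc. With no filter it rose by 1.82 on the log2 scale (standard error 0.35, adjusted p = 0.0111 from limma). Both genes are weak, and they were singled out after their values were seen.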
